A study of Mus musculus with 15 samples.

Results

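The respiratory chain group holds the genes whose symbols mark them as subunits of complexes I to V of oxidative phosphorylation. It was made of every symbol that begins with Nduf and the letter a, b, c, s or v before a digit, of Sdha to Sdhd, and of symbols that begin with Uqcr, with Cox4 to Cox8 before the letter a, b or c, or with Atp5. The protein genes of the mitochondrial genome, written with mt-Nd, mt-Co, mt-Cytb or mt-Atp, completed the group. These patterns found 98 of the 27907 genes in the table, and 3 pseudogenes with -ps in the symbol were left out, so that 95 genes remained. Of these, 82 lie in the nucleus, with 37 in complex I, 4 in complex II, 8 in complex III, 16 in complex IV and 17 in complex V. The other 13 are encoded by mitochondrial DNA, 7 of them in complex I, 1 in complex III, 3 in complex IV and 2 in complex V. Complexes were assigned by symbol alone, although Ndufa4 is also known as a subunit of complex IV, Cox7a2l as a factor that joins complexes III and IV, and Atp5sl as an assembly factor of complex I.

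Ovarian RNA was taken from females at 6 months of age in the estrus phase of the cycle. The 7 HSD17B1-KI females were homozygous for HSD17B1 Ser143Ala, a point mutation of Hsd17b1 made by CRISPR/Cas9 that alters the active site of the estrogen-producing enzyme, and the 8 WT females were the controls. Both came from crosses of heterozygous parents, and each library was made from 1 female with a stranded mRNA kit. The comparison asked which ovarian transcripts differed between the genotypes. Reads counted on genes ranged from 39092867 to 69972608 in HSD17B1-KI and from 26544745 to 72362981 in WT.

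Complexes I and II pass electrons from NADH and succinate to ubiquinone, complex III passes them on to cytochrome c, and complex IV hands them to oxygen. Complexes I, III and IV pump protons across the inner mitochondrial membrane, and complex V, the ATP synthase, uses the gradient to make ATP. Most subunits are encoded in the nucleus and imported, whereas a small set in the core of complexes I, III, IV and V is encoded by mitochondrial DNA, and complex II has nuclear subunits only. In steroid-producing cells of the ovary, mitochondria also hold the side chain cleavage enzyme that makes pregnenolone from cholesterol.

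The library of HSD17B1-KI 1 stood apart from the other 14. Its 13 mitochondrial genes took 6.31% of all normalized counts, against 2.62 to 3.24% in the other mice. It also had the highest count of the 15 mice for 33 of the 80 nuclear genes tested. WT 1, the library with the fewest reads, was highest for 25 of them. WT 1 was also the lowest mouse for Sdha, Ndufv1, Uqcrc1 and Atp5a1. Counts and medians of the complexes are therefore given with and without HSD17B1-KI 1. Markers of granulosa, theca, luteal and oocyte cells were above 0 in every mouse, with Cyp11a1 at 153420.3 normalized counts or more, as the label ovary requires. Markers of the oviduct (Ovgp1, Foxj1, Dnah5 and Krt7) summed to 1525 to 24486 normalized counts in HSD17B1-KI and 1892 to 223867 in WT, and were highest in WT 1 and WT 8. Ranges without the 4 libraries with more than 2000 counts of Foxj1 (HSD17B1-KI 1, HSD17B1-KI 3, WT 1 and WT 8) are given where they bear on a count. The level of Hsd17b1 mRNA, with means of 11650.0 (SD 4351) normalized counts in HSD17B1-KI and 8829 (SD 2952) in WT, does not check the genotype labels, because the mutation changes 1 amino acid.

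Of the 95 genes, 2 were DE at an adjusted p under 0.05 (limma-trend, Benjamini-Hochberg over 21525 genes), and both were nuclear genes of complex II that were higher in HSD17B1-KI, Sdha and Sdhb. Over all genes tested, 0.214% were DE. DESeq2 on whole reads recovered from the table also called these 2 members, beside 2.3% of all genes it tested. The test covered 92 members, since Cox7b2, Cox8c and mt-Atp8 had a mean under 2 normalized counts. In bulk tissue, a difference in the number of cells of a type and a difference in RNA per cell cannot be told apart. Without HSD17B1-KI 1, limma-trend called none of the members, beside 0.0697% of all genes called. At an unadjusted p under 0.05, 9 members were higher and none lower, beside 5.16% and 4.06% of all genes. In that fit DESeq2 still called Sdha and Sdhb, beside 1.57% of all genes.

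At an unadjusted p under 0.05, 14 of the 80 nuclear genes were higher in HSD17B1-KI and none was lower, whereas 5.36% of all genes were higher and 4.64% lower. Fold changes lay above 0 for 70 of the 80 nuclear genes, against 44.8% of all genes. Their median log2 fold change was 0.11, beside -0.02 over all genes tested. When HSD17B1-KI 1 was left out, 9 nuclear genes had an unadjusted p under 0.05, with 5.16% of all genes higher and 4.06% lower. In that fit 59 lay above 0, with 46.1% of all genes, and the median was 0.07. Without the 4 libraries rich in Foxj1, 7 nuclear genes were higher, beside 4.11% of all genes higher and 3.41% lower. Fold changes then lay above 0 for 73 of them, beside 47.7% of all genes, and the median was 0.11. The 12 mitochondrial genes tested were divided evenly, with 6 above 0 and 6 below, and none reached an unadjusted p under 0.05. Their median was 0.02, and -0.05 without HSD17B1-KI 1. Several of these 12 had few counts. Of the 6 with over 1000 normalized counts in every mouse, 4 lay above 0, beside 44.8% of all genes, with a median of 0.15. Without HSD17B1-KI 1, 2 of these 6 lay above 0, beside 46.1% of all genes, with a median of -0.02. Differences in the nuclear genes were thus small, and the largest for a gene with over 1000 counts in every mouse was 0.38 on the log2 scale, for Ndufa1.

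**Figure D1:**
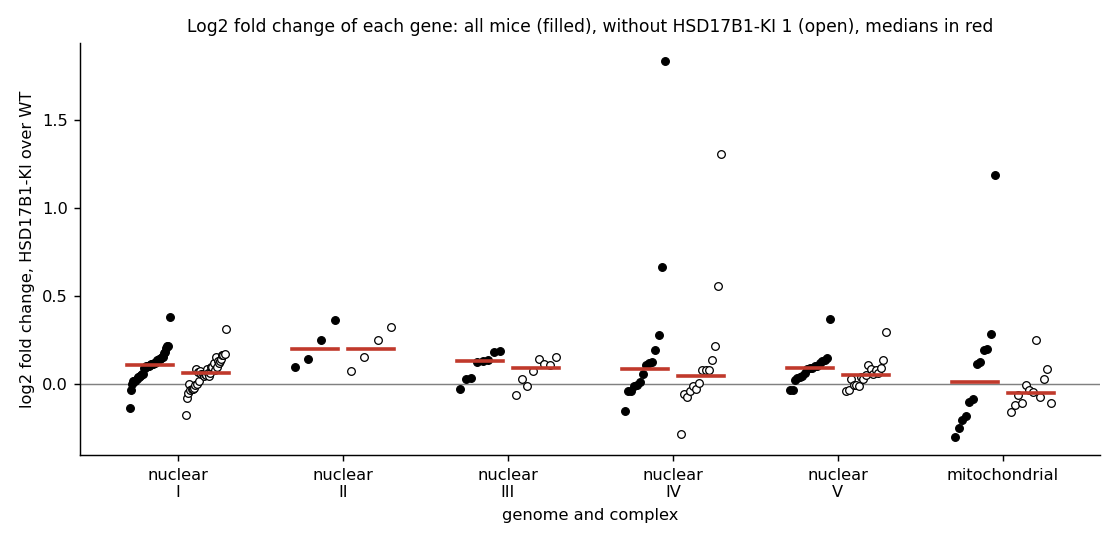
Log2 fold change of HSD17B1-KI over WT (vertical axis) for each gene tested, by genome and complex (horizontal axis), from the fit to all 15 mice (filled) and to the 14 mice without HSD17B1-KI 1 (open), with the median of each set as a red line. Most nuclear genes lie slightly above 0 in the fit to all mice, and the mitochondrial genes spread to both sides and draw closer to 0 without HSD17B1-KI 1, where mt-Co2 moves from 1.19 to -0.10.

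Summed per mouse, the 82 nuclear genes took 0.944 to 1.14% of all normalized counts in HSD17B1-KI and 0.897 to 1.10% in WT. The groups overlapped, and the highest mice were HSD17B1-KI 1 in the one and WT 1 in the other. By complex, the sum of complex II lay between 38082 and 41961 normalized counts in HSD17B1-KI and between 31752 and 37057 in WT, so that the genotypes did not overlap. Sdha makes up the largest part of this sum. Its mean over all mice was 19420 normalized counts, against 7314 for Sdhb, 4835 for Sdhc and 5380 for Sdhd. Sdha was also the 1 gene of the complex with all 7 HSD17B1-KI mice above all WT mice (0.274% of all genes tested). With the 4 genes weighed alike, as the mean of their log2 values centred on all mice, the genotypes overlapped. The values ran from -0.04 to 0.20 in HSD17B1-KI and from -0.21 to 0.09 in WT, with 4 of 7 HSD17B1-KI mice above all WT mice. For the other complexes the ranges overlapped, and 4 of 7 HSD17B1-KI mice lay above all WT mice in complex V, 1 in complexes I and III, and none in complex IV.

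**Figure D2:**
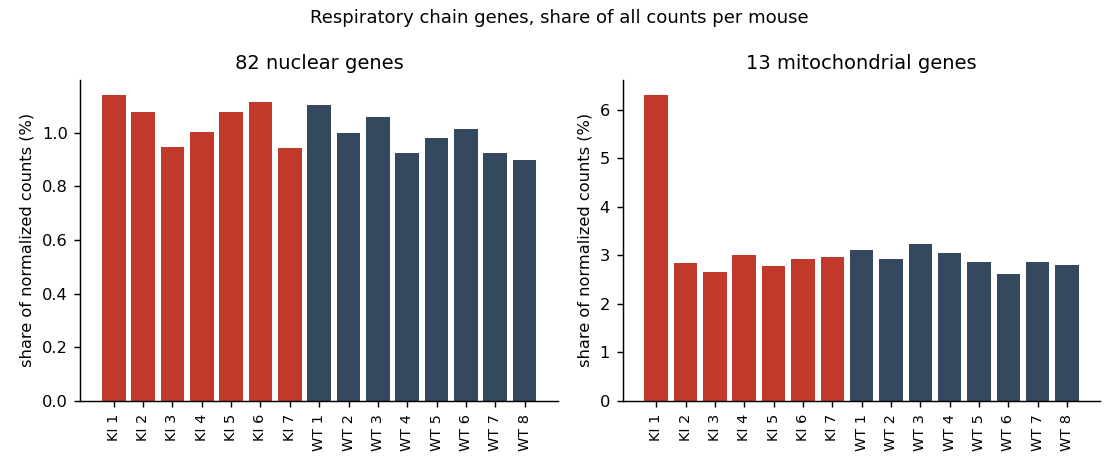
Share of all normalized counts (vertical axes, in percent) in each of the 7 HSD17B1-KI mice (red) and 8 WT mice (blue-grey) for the 82 nuclear genes (left) and the 13 mitochondrial genes (right). The nuclear share stays between 0.897 and 1.14% in all mice, and the mitochondrial share reaches 6.31% in HSD17B1-KI 1 alone.

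Complex II, succinate dehydrogenase, is an enzyme of both the citric acid cycle and the respiratory chain. Sdha (ENSMUSG00000021577, chromosome 13 from 74322254 to 74350280) encodes its flavoprotein, which oxidises succinate, and Sdhb (ENSMUSG00000009863, chromosome 4 from 140961203 to 140979193) the iron-sulfur subunit that carries the electrons onward. Sdhc and Sdhd encode the membrane anchors with the ubiquinone site. Sdha had between 20127 and 21941 normalized counts in HSD17B1-KI, with a median of 21505, and between 16399.7 and 19262 in WT, with a median of 17976. The lowest of the 7 HSD17B1-KI mice thus exceeded the highest WT mouse, as it did for 0.274% of all genes tested. The means were 21226 ± 736 (SD, n = 7) and 17839 ± 1027 (SD, n = 8), with a log2 fold change of 0.25 ± 0.05 (SE, limma-trend adjusted p = 0.0468). Sdhb had between 7121 and 9922 normalized counts in HSD17B1-KI, with a median of 8413, and between 5664 and 7262 in WT, with a median of 6316. Here 6 of 7 HSD17B1-KI mice were above all WT mice, and HSD17B1-KI 3 lay under the highest WT mouse, WT 3. The log2 fold change of Sdhb was 0.37 ± 0.07 (SE, limma-trend adjusted p = 0.0468).

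The fold changes of these 2 genes moved little without HSD17B1-KI 1, to 0.25 for Sdha and 0.32 for Sdhb, while the limma-trend adjusted p rose to 0.0927 and 0.0884. With DESeq2 in the same mice it was 0.000133 and 0.000953. Over the alternatives the adjusted p of limma-trend, edgeR and DESeq2 ranged from 1.37e-05 to 0.434 for Sdha and from 0.000444 to 0.391 for Sdhb. When each mouse was left out in turn, both genes stayed DE with limma-trend in the fit without HSD17B1-KI 5, and leaving out any of the other 14 mice took both genes over the threshold. The log2 fold change ranged from 0.24 to 0.27 for Sdha and from 0.32 to 0.40 for Sdhb in these fits. Without the 4 libraries rich in Foxj1 it was 0.23 for Sdha and 0.34 for Sdhb, and limma-trend called no gene at all in that fit.

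The membrane anchors showed smaller differences. Sdhc had between 4186 and 5612 normalized counts in HSD17B1-KI, with a median of 5358, and between 3906 and 6118 in WT, with a median of 4544. Sdhd had between 4822 and 6511 normalized counts in HSD17B1-KI, with a median of 5498, and between 4556 and 6053 in WT, with a median of 4881. The groups overlapped in both, with no HSD17B1-KI mouse above all WT mice for Sdhc and 3 of 7 for Sdhd, and the log2 fold changes were 0.10 ± 0.10 (SE) for Sdhc and 0.15 ± 0.09 (SE) for Sdhd. Their limma-trend adjusted p was 0.781 and 0.611. Whether Sdhb differed more than Sdhc was not tested.

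**Figure D3:**
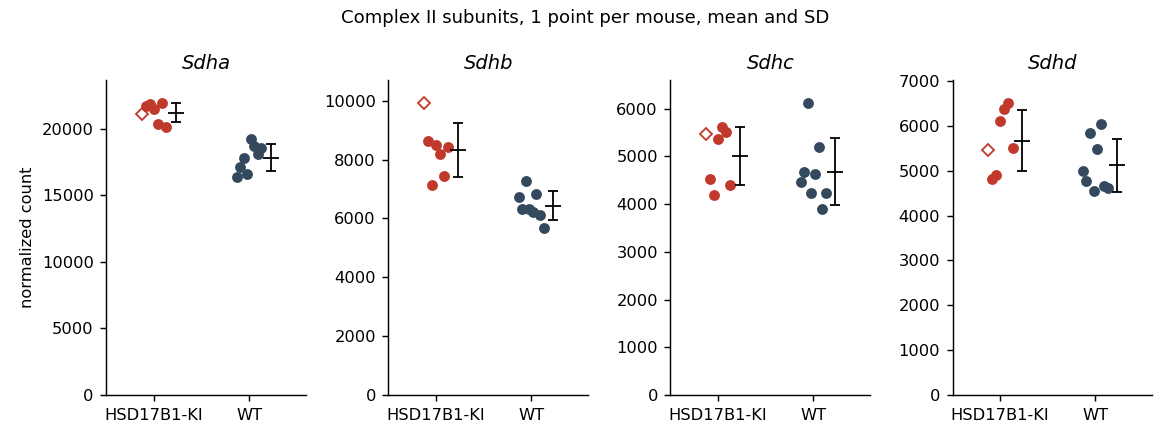
Normalized counts (vertical axes, starting at 0) of the 4 complex II subunits in HSD17B1-KI (red) and WT (blue-grey), with 1 point per mouse, an open diamond for HSD17B1-KI 1, and the mean with SD beside the points. For Sdha the lowest HSD17B1-KI mouse, at 20127, lies above the highest WT mouse, at 19262, whereas the points of Sdhc and Sdhd overlap.

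The sequences before the start of the DE genes are shown because promoters of respiratory chain genes are known to hold sites of NRF1 and of ETS factors such as GABPA. RefSeq promoters (GRCm38.p6) were found for 69 of the 82 nuclear members, Sdha, Sdhb and Sdhd among them. The windows are the 250 bases before the RefSeq start, written 5′ to 3′ on the strand of the gene, at chr13:74350241-74350490 (minus strand) and chr4:140961021-140961270 (plus strand). Both RefSeq starts lie inside the GENCODE gene spans given above, so the end of each window reaches into its gene. Capitals mark matches to the NRF1 letters GCGCANGCG.
Sdha: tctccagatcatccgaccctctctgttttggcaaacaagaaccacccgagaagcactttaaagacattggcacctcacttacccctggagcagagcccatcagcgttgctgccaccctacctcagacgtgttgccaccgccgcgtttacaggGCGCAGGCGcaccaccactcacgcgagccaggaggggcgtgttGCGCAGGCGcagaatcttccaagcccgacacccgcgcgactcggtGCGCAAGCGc
Sdhb: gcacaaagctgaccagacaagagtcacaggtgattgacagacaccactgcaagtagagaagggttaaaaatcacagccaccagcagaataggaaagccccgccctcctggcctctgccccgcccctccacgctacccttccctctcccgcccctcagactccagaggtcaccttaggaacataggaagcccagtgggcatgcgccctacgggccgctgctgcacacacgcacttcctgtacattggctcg
Sdha had 3 such matches, which began 98, 55 and 10 bases before the RefSeq start, and Sdhb had none in its window. Over the 250 bases before and 50 after the start, on both strands, 20 of the 69 member promoters (29.0%) held the NRF1 letters, as did 7.03% of 27025 promoters. The ETS letters CCGGAAG were in 16 member promoters (23.2%), Sdhb and Sdhd included, and in 9.93% of all. The YY1 letters AAGATGGCG were in 8 (11.6%) against 1.64%, and the letters TCAAGGTCA of the estrogen-related receptors in 2, Sdhd and Atp5g3 (2.90%), against 0.466%. A match is a description of the letters and not a site in use, and none of the 4 strings of letters contains another.

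Among the 37 nuclear genes of complex I, 35 had a fold change above 0, beside 44.8% of all genes. At an unadjusted p under 0.05, 6 of the 37 were higher in HSD17B1-KI and none lower, beside 5.36% and 4.64% of all genes. The median log2 fold change of the complex was 0.11, and none of its genes was DE. Without HSD17B1-KI 1 its median was 0.06, and 29 lay above 0, beside 46.1% of all genes. In that fit Ndufa1, Ndufs1, Ndufs3 and Ndufv1 had an unadjusted p under 0.05, beside 5.16% of all genes higher. The core subunits hold the cofactors. Ndufv1, which binds NADH and the flavin, had between 5487 and 7019.6 normalized counts in HSD17B1-KI, with a median of 5934, and between 4664 and 5866 in WT, with a median of 5354, with 4 of 7 HSD17B1-KI mice above every WT mouse. Its log2 fold change was 0.18 ± 0.07 (SE, limma-trend adjusted p = 0.324). Ndufs1, the largest iron-sulfur subunit, had between 6093 and 6544 normalized counts in HSD17B1-KI, with a median of 6485, and between 5218 and 6483 in WT, with a median of 5815. The HSD17B1-KI mice lay close together here, at the upper end of the WT range, 4 of 7 exceeded all WT mice, and the log2 fold change was 0.14 ± 0.05 (SE, limma-trend adjusted p = 0.332). Ndufs3, a core subunit of the arm that faces the matrix, had between 4983 and 6730.4 normalized counts in HSD17B1-KI, with a median of 5073, and between 4399 and 5113 in WT, with a median of 4714. Its 3 highest mice were HSD17B1-KI 1, HSD17B1-KI 6 and HSD17B1-KI 2, the other 4 HSD17B1-KI mice lay within the WT range, and the log2 fold change was 0.22, or 0.17 without HSD17B1-KI 1.

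Ndufs8, another iron-sulfur subunit, had a log2 fold change of 0.22 ± 0.09 (SE) and an unadjusted p under 0.05. Without HSD17B1-KI 1 the fold change was 0.16 and the unadjusted p was over 0.05. Further core subunits, Ndufs7, an iron-sulfur protein, and Ndufv2, which adjoins Ndufv1, differed by 0.12 and 0.02 on the log2 scale, within the spread between mice (limma-trend adjusted p = 0.717 and 0.969). Of the accessory subunits, Ndufa1, an X-linked subunit of the membrane arm, had the highest fold change and Ndufc2, of the same arm, the lowest. Ndufa1 had between 1641 and 2893 normalized counts in HSD17B1-KI, with a median of 2282, and between 1344 and 2398 in WT, with a median of 1566. HSD17B1-KI 1 and HSD17B1-KI 2 lay above all WT mice, the other 5 did not, and the log2 fold change was 0.38 ± 0.14 (SE, limma-trend adjusted p = 0.36). For Ndufc2 the log2 fold change was -0.14 ± 0.14 (SE, limma-trend adjusted p = 0.797), and WT 1 was the highest mouse at 5757 normalized counts. The last gene of the complex with an unadjusted p under 0.05 was Ndufb9, at 0.20 ± 0.09 (SE), where 4 of 7 HSD17B1-KI mice exceeded all WT mice.

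In complex III, 7 of 8 nuclear genes lay above 0 (44.8% of all genes), with a median of 0.13. At an unadjusted p under 0.05, 1 of the 8 was higher (5.36% of all genes). This was Uqcrc1, a core protein of the matrix side, with between 8793 and 10943 normalized counts in HSD17B1-KI, with a median of 9395, and between 7434 and 9328 in WT, with a median of 8337. HSD17B1-KI 1 was the highest mouse, and 3 further HSD17B1-KI mice were above all WT mice. The log2 fold change was 0.19 ± 0.06 (SE, limma-trend adjusted p = 0.257), and 0.15 without HSD17B1-KI 1. The complex had a median of 0.09 in that fit. The other core protein, Uqcrc2, differed by 0.03 and the Rieske iron-sulfur protein Uqcrfs1 by 0.13, with limma-trend adjusted p of 0.868 and 0.676. The lowest fold change was that of Uqcrb, a small subunit near the ubiquinone site, at -0.03.

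Complex IV held the widest range of fold changes, from -0.15 for Cox8b to 1.83 for Cox6a2, around a median of 0.08 over 14 genes tested. At an unadjusted p under 0.05, Cox6a2, Cox7a1 and Cox6b2 were higher (5.36% of all genes), and Cox6a2 alone without HSD17B1-KI 1 (5.16% of all genes). The median was 0.05 without HSD17B1-KI 1. Several of its subunits come in a general form and in a form of striated muscle. Cox6a2, the muscle form of subunit 6a (chromosome 7 from 128205435 to 128206387), had between 14.5 and 329.8 normalized counts in HSD17B1-KI, with a median of 30.5, and between 4.77 and 23.9 in WT, with a median of 9.03. Single counts were 330 in HSD17B1-KI 1, 14.5, 19.5, 47.9, 30.5, 31.0 and 18.4 in HSD17B1-KI 2 to 7, and 6.79, 23.9, 8.80, 9.26, 12.6, 12.5, 6.02 and 4.77 in WT 1 to 8. HSD17B1-KI 1 was thus far above the next mouse, HSD17B1-KI 4, while 4 of 7 mice of its group exceeded all WT mice. The log2 fold change was 1.83 ± 0.54 (SE, limma-trend adjusted p = 0.208, DESeq2 adjusted p = 0.0517, 0.0517 to 0.548 over the alternatives). Without HSD17B1-KI 1 it was 1.31 (limma-trend adjusted p = 0.197), with 27.0 ± 12.2 (SD, n = 6) normalized counts in the other HSD17B1-KI mice and 10.6 ± 6.09 (SD, n = 8) in WT. Striated muscle markers (Ckm, Acta1, Myh1, Tnnt3 and Actc1) summed to 85.9 counts in HSD17B1-KI 1, inside the range of the other 14 mice of 64.0 to 179. None of the 5 was higher in HSD17B1-KI at an unadjusted p under 0.05, and Acta1 was lower (log2 fold change -1.36, limma-trend adjusted p = 0.224).

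Cox7a1, the muscle form of subunit 7a, had between 102 and 320.3 normalized counts in HSD17B1-KI, with a median of 209, and between 72.5 and 217 in WT, with a median of 125. HSD17B1-KI 6, HSD17B1-KI 1 and HSD17B1-KI 2 were above all WT mice, and the log2 fold change was 0.67 ± 0.27 (SE, limma-trend adjusted p = 0.408). Without HSD17B1-KI 1 the fold change was 0.56 with an unadjusted p over 0.05. Cox8b, the muscle form of subunit 8, stayed at or under 10.2 counts in every mouse. Of the forms known from testis, Cox6b2 had between 384 and 599 normalized counts in HSD17B1-KI, with a median of 481, and between 319 and 481 in WT, with a median of 385, with a log2 fold change of 0.28 ± 0.12 (SE, limma-trend adjusted p = 0.456). Cox7b2 and Cox8c, also known from testis, had at most 3.39 counts in any mouse.

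The general forms were far more abundant. Levels per kb divide the count by the joined length of all annotated exons of a gene, so that their order also depends on that length. Per kb of exon, Cox6a1 had 14152 normalized counts in WT and Cox6a2 15.6, Cox7a2 had 4273 and Cox7a1 248, and Cox6b1 had 8914 and Cox6b2 351. Log2 fold changes of the general forms were 0.19 for Cox6a1, 0.11 for Cox6b1, 0.12 for Cox7a2 and -0.01 for Cox8a, with limma-trend adjusted p of 0.567, 0.807, 0.813 and 0.988. Cox7a2l, which links complexes III and IV, differed by -0.04 and was highest in HSD17B1-KI 6, at 11429 counts.

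**Figure D4:**
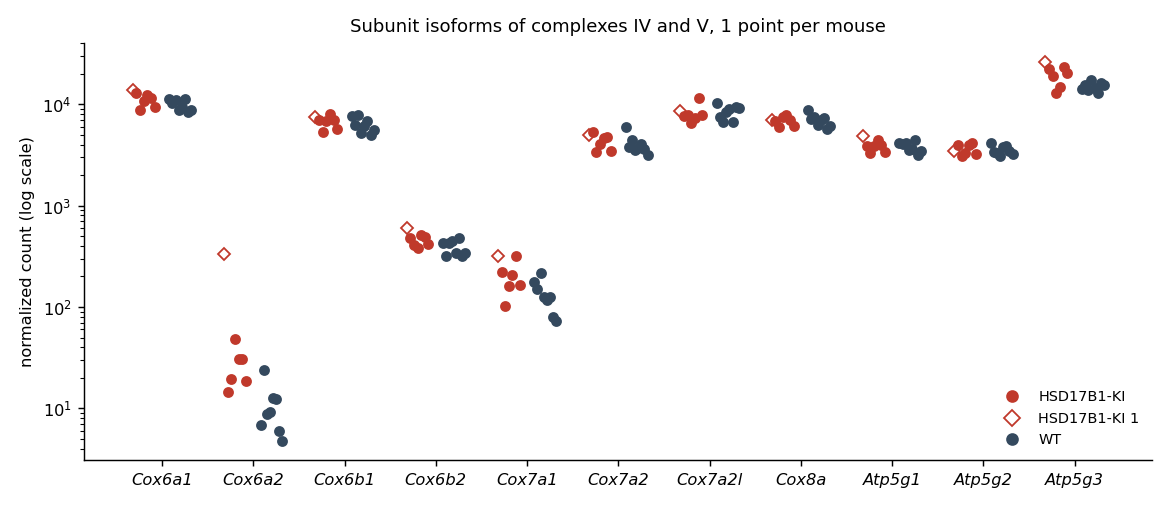
Normalized counts (vertical axis, log scale) of isoforms of complex IV subunits and of subunit c of complex V, with 1 point per mouse, HSD17B1-KI in red with an open diamond for HSD17B1-KI 1, and WT in blue-grey. Cox6a2 of HSD17B1-KI 1 lies at 330, far above its group, while in Cox7a1, Cox6b2 and the general forms the points of the genotypes overlap.

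In complex V, 15 of 17 nuclear genes lay above 0 (44.8% of all genes), with a median of 0.09, or 0.05 without HSD17B1-KI 1. Atp5a1 and Atp5g3 were higher at an unadjusted p under 0.05 (5.36% of all genes), and Atp5g3 alone without HSD17B1-KI 1 (5.16% of all genes). Of the 3 genes that encode the same mature subunit c of the membrane ring, Atp5g3 had the highest fold change. Atp5g3 had between 13052 and 26344 normalized counts in HSD17B1-KI, with a median of 20172, and between 13012 and 17364 in WT, with a median of 14899.8. The HSD17B1-KI mice were widely spread, with 5 above all WT mice and HSD17B1-KI 4 and HSD17B1-KI 5 within the WT range. The log2 fold change of Atp5g3 was 0.37 ± 0.13 (SE, limma-trend adjusted p = 0.309), and 0.30 without HSD17B1-KI 1. Atp5g1 and Atp5g2 had log2 fold changes of 0.05 and 0.02 (limma-trend adjusted p = 0.913 and 0.951). Per kb of exon, Atp5g3 had 6869 normalized counts in WT, Atp5g2 2114 and Atp5g1 779.9. The annotated exons of Atp5g1 cover 4912 bases and those of Atp5g2 1675. Before division, their mean normalized counts over all mice were 3893 for Atp5g1 and 3570 for Atp5g2. Of the catalytic head, Atp5a1 (the alpha subunit) had between 37813 and 42773 normalized counts in HSD17B1-KI, with a median of 41952, and between 32193 and 40353 in WT, with a median of 36592, and 4 of 7 HSD17B1-KI mice exceeded all WT mice. Its log2 fold change was 0.15 ± 0.06 (SE, limma-trend adjusted p = 0.444). Atp5b (the beta subunit) differed by 0.09 ± 0.07 (SE, limma-trend adjusted p = 0.73). The lowest fold change of the complex was -0.03, for Atp5f1, a subunit of the peripheral stalk.

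The spread between WT mice differed among the nuclear genes. The SD was 5.00 to 57.6% of the mean, with a median of 13.8%. The median was lowest in complex II, at 9.61%, and complex V, at 10.9%, and was 17.6% in complex III and 17.7% in complex IV. Per kb of exon, levels in WT ran from 13.3 normalized counts for Cox8b to 14152 for Cox6a1, around a median of 2717.

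The 13 mitochondrial genes fell into those with many counts and those with few. mt-Nd1, mt-Nd2, mt-Nd4 and mt-Nd5 of complex I, mt-Cytb of complex III and mt-Co1 of complex IV had over 1000 normalized counts in every mouse. Per kb they had 76630.4 (mt-Nd5) to 352753 (mt-Co1) in WT. The other 7 were far lower per kb in WT, at 238 for mt-Nd6, 101 for mt-Co2, 87.3 for mt-Co3, 62.8 for mt-Atp6, 13.3 for mt-Nd4l, 7.80 for mt-Nd3 and 7.33 for mt-Atp8. All of these genes except mt-Nd6 are transcribed from the heavy strand of mitochondrial DNA as parts of one long precursor.

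Near-identical copies in the nuclear genome overlap most of the genes with few counts. GENCODE M21 transcripts were searched for alignments of at least 150 bases and 90% identity. mt-Co2, mt-Atp6, mt-Co3 and mt-Nd4l matched the pseudogenes Gm28661, Gm10925, Gm28437 and Gm10222 on chromosome 1 at 100% identity over 681, 678, 783 and 294 bases, nearly their full length. mt-Nd3 matched Gm28438 on the same chromosome with 1 mismatch over 345 bases. mt-Nd6 matched Gm11408 at 93.6%, and for mt-Atp8 and mt-Nd1 no such copy was found among these transcripts. Sequence outside annotated transcripts was not searched. mt-Atp8 starts between mt-Co2 and mt-Atp6. On chromosome 1 their copies leave a stretch between the end of Gm10925 at 24614651 and the start of Gm28661 at 24614885. Whether that stretch holds a copy of mt-Atp8 was not tested. Of the genes with many counts, mt-Cytb matched Gm11410 at 92.9%, mt-Nd5 matched Gm4076 at 95.2% and mt-Nd2 matched Gm13339 at 96.7%. mt-Nd4 was identical to Gm28439 over 876 of its 1378 bases, and mt-Co1 matched Gm29216 at 99.8% over 483 of 1545. mt-Co1 also matched Gm13340 at 97.6% over all 1545 bases. A read that fits both places equally cannot be assigned by its sequence, and how such reads were counted is not given in the sources used here. Counts of these mitochondrial genes, and of their copies, are therefore uncertain.

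A stretch of mt-Co2, a gene with few counts in 14 mice, and of mt-Cytb, a gene with many, shows the difference. Each line gives bases 21 to 100 of the GENCODE M21 transcript (GRCm38) or of the aligned copy, and capitals mark bases that differ from the mitochondrial gene. mt-Co2 lies at chrM:7013-7696 and mt-Cytb at chrM:14145-15288 (plus strand), Gm28661 at chr1:24614885-24615565 and Gm13341 at chr2:22587291-22587962 (minus strand), and Gm11410 at chr4:80003989-80005131 (plus strand).
mt-Co2: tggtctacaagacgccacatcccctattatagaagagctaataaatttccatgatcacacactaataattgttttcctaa
Gm28661: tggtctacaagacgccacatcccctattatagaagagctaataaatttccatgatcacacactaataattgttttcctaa
Gm13341: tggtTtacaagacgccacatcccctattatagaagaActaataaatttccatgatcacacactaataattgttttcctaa
mt-Cytb: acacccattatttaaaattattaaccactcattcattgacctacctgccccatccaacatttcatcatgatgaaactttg
Gm11410: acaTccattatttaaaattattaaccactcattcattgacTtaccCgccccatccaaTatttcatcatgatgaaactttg
Gm28661 had no difference from mt-Co2 in the stretch, Gm13341 had 2, and Gm11410 had 4 from mt-Cytb. Gm28661 itself had between 257 and 1146 normalized counts in HSD17B1-KI, with a median of 670.4, and between 262 and 2856 in WT, with a median of 669, with WT 1 the highest mouse.

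Among the 6 genes with many counts, the genotypes overlapped once HSD17B1-KI 1 was set aside. mt-Co1, the catalytic subunit of complex IV that binds oxygen, had between 512445 and 1254814 normalized counts in HSD17B1-KI, with a median of 584475, and between 490199 and 579726 in WT, with a median of 549081. In the 6 HSD17B1-KI mice other than HSD17B1-KI 1 it lay between 512445 and 588504, and 3 of them were slightly above all WT mice. The log2 fold change was 0.20 ± 0.16 (SE, limma-trend adjusted p = 0.736) with all mice and 0.03 without HSD17B1-KI 1. mt-Cytb, the subunit of complex III that holds both haems of the b type, had between 232694 and 919842 normalized counts in HSD17B1-KI, with a median of 258953, and between 242038 and 320879.8 in WT, with a median of 261614. It moved from 0.19 to -0.07 on the log2 scale when HSD17B1-KI 1 was left out, with limma-trend adjusted p of 0.838 and 0.827. The membrane subunits of complex I likewise stayed within the spread between mice. Without HSD17B1-KI 1, the log2 fold change was -0.04 for mt-Nd1, 0.09 for mt-Nd2, 0.00 for mt-Nd4 and -0.06 for mt-Nd5.

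HSD17B1-KI 1 did not differ by 1 factor over the mitochondrial genes. Compared with the median of the other 14 mice, its count was 2.10 times as high for mt-Nd1, 2.68 for mt-Nd2, 2.29 for mt-Co1 and 3.56 for mt-Cytb. It was 0.637 times the median for mt-Nd4 and 0.486 for mt-Nd5, below every other mouse in both. Of the summed counts of these 6 genes, mt-Cytb took 30.8% in HSD17B1-KI 1 and 18.4 to 21.2% in the others, and mt-Nd5 took 2.27% against 8.54 to 11.1%. mt-Co2 had 34199 normalized counts in HSD17B1-KI 1 and 40.1 to 108 in the other 14 mice, 522 times their median. Gm28661 had 839 counts in HSD17B1-KI 1, inside the range of the others. The mitochondrial tRNA gene mt-Tt, just after mt-Cytb, had 351 counts in this mouse and 6.02 to 23.8 in the others. mt-Co3 and mt-Atp6 were lowest in HSD17B1-KI 1, at 30.2 and 19.7.

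mt-Nd6, the protein gene on the light strand, had between 77.8 and 224 normalized counts in HSD17B1-KI, with a median of 143, and between 93.7 and 172 in WT, with a median of 117, with a log2 fold change of 0.13 ± 0.21 (SE, limma-trend adjusted p = 0.885). It is not given in the sources used here whether reads were counted by strand, and without that, reads of this gene and of its opposite strand cannot be told apart. mt-Nd3, mt-Nd4l and mt-Atp8 had at most 6.72 counts in any mouse, a depth at which a difference between the genotypes was not detectable.

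**Figure D5:**
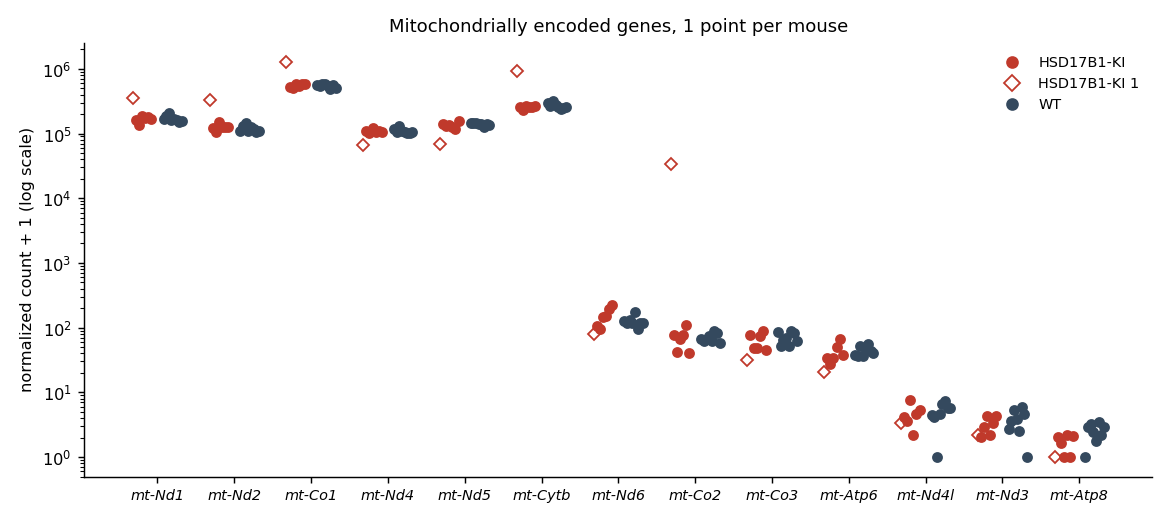
Normalized count + 1 (vertical axis, log scale) of the 13 mitochondrially encoded genes, with 1 point per mouse, HSD17B1-KI in red with an open diamond for HSD17B1-KI 1, and WT in blue-grey. HSD17B1-KI 1 lies above its group for mt-Nd1, mt-Nd2, mt-Co1 and mt-Cytb, below it for mt-Nd4 and mt-Nd5, and at 34199 for mt-Co2, where the other 14 mice have at most 108.

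Other genes of the pathway were described as lists. The first holds 8 subunits and carriers, of which the patterns matched only Ndufa4l2. Of the 8, 7 lay above 0 (median 0.08) and 1 was higher at an unadjusted p under 0.05, beside 44.8% and 5.36% of all genes. Cyc1, cytochrome c1 of complex III, had an unadjusted p under 0.05, at 7483 ± 728 (SD, n = 7) normalized counts in HSD17B1-KI, 6537 ± 333 (SD, n = 8) in WT and a log2 fold change of 0.19 ± 0.06 (SE, limma-trend adjusted p = 0.258). Cycs (cytochrome c), Cox4i1 and Cox4i2 (subunit 4 of complex IV), Ndufab1 (the acyl carrier subunit of complex I) and Atpif1 (the inhibitor of complex V) lay between 0.05 and 0.13, and Usmg5, a small subunit of complex V, at -0.07.

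Assembly factors put the complexes together. Of 46 listed, 42 were in the table and tested, 29 lay above 0, none was DE and 4 had an unadjusted p under 0.05, all higher, beside 44.8% of all genes above 0 and 5.36% higher. Without HSD17B1-KI 1, 3 were higher and 1, Ndufaf4, was lower (log2 fold change -0.19), beside 5.16% and 4.06% of all genes. With that mouse left out 30 lay above 0, beside 46.1% of all genes. The 4 that were higher in the fit to all mice were Cox14, Surf1, Coa7 and Taco1, which serve complex IV. Their log2 fold changes in that fit were 0.25, 0.18, 0.17 and 0.26 (lowest limma-trend adjusted p = 0.281, for Coa7). Sdhaf1 and Sdhaf2, which help to assemble complex II, differed by 0.12 and 0.07, within the spread between mice. The list median was 0.06, or 0.05 without HSD17B1-KI 1, against -0.02 over all genes.

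Of 17 genes for the expression of mitochondrial DNA, 16 were in the table, 11 of them above 0, beside 44.8% of all genes. At an unadjusted p under 0.05, 2 were higher, the ribosomal RNAs mt-Rnr1 and mt-Rnr2, beside 5.36% of all genes. The libraries were made with an mRNA kit, so counts of these ribosomal RNAs also depend on how much of them was carried over. mt-Rnr1 had between 10562 and 20334 normalized counts in HSD17B1-KI, with a median of 12432, and between 7833 and 11536 in WT, with a median of 9982, with HSD17B1-KI 1 the highest mouse. Its log2 fold change was 0.38 ± 0.12 (SE, limma-trend adjusted p = 0.235), and 0.28 without HSD17B1-KI 1 (adjusted p = 0.276, and 0.0762 to 0.51 over the alternatives), where 5 of 6 mice were above every WT mouse. mt-Rnr2 differed by 0.37 ± 0.16 (SE) with all mice and by 0.21 without HSD17B1-KI 1. In the fit without that mouse mt-Rnr1 was the only gene of the list with an unadjusted p under 0.05, beside 5.16% of all genes higher. Tfam, which packages and transcribes mitochondrial DNA, and its polymerase Polrmt lay at 0.02 and 0.09.

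None of the 12 regulators of respiratory gene expression had an unadjusted p under 0.05. Beside 44.8% of all genes above 0, 10 of the 12 lay below 0, with a list median of -0.05. Without HSD17B1-KI 1 the median was -0.04, and 1 gene was higher at an unadjusted p under 0.05, beside 5.16% of all genes. This was Ppara, a receptor for fatty acids, at a log2 fold change of 0.66 (limma-trend adjusted p = 0.518, and 0.27 to 0.744 over the alternatives). Nrf1 and Gabpa, whose letters were searched above, differed by -0.04 and -0.07, and the coactivators Ppargc1a and Ppargc1b by -0.31 and -0.22 (limma-trend adjusted p = 0.645 and 0.72).

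Among 7 further dehydrogenases that pass electrons to ubiquinone, 3 were higher and 1 lower at an unadjusted p under 0.05, beside 5.36% and 4.64% of all genes. Without HSD17B1-KI 1, Etfb was higher and Prodh lower, beside 5.16% and 4.06% of all genes, and the others did not pass. Etfb, the beta subunit of the electron transfer flavoprotein, had between 4749.8 and 7545 normalized counts in HSD17B1-KI, with a median of 5119, and between 4036 and 4951 in WT, with a median of 4367. Here 6 of 7 HSD17B1-KI mice were above all WT mice, and the log2 fold change was 0.33 ± 0.09 (SE, limma-trend adjusted p = 0.141, DESeq2 adjusted p = 0.0244, 0.0229 to 0.471 over the alternatives). Etfa, its alpha subunit, and Dhodh, of pyrimidine synthesis, were at 0.14 and 0.18, and Prodh, which oxidises proline, at -0.37 (limma-trend adjusted p = 0.498, 0.431 and 0.496).

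A last list of 20 genes for the outer membrane, import and matrix of mitochondria had a median log2 fold change of 0.04. Of these genes, 16 lay above 0, beside 44.8% of all genes tested. Immt, a protein that shapes the cristae of the inner membrane, had between 9844 and 11980.0 normalized counts in HSD17B1-KI, with a median of 10888, and between 8728 and 9771 in WT, with a median of 9167. For Immt all 7 HSD17B1-KI mice lay above every WT mouse, as they did for 0.274% of all genes tested. Its log2 fold change was 0.22 ± 0.05 (SE, limma-trend adjusted p = 0.092, DESeq2 adjusted p = 0.00217, 0.00217 to 0.553 over the alternatives), and 0.20 without HSD17B1-KI 1. Vdac3, Tomm20, Timm44 and Lonp1 likewise passed at an unadjusted p under 0.05, at log2 fold changes of 0.15, 0.17, 0.13 and 0.31. With Immt, 5 of the 20 genes were thus higher, beside 5.36% of all genes. Immt alone passed without HSD17B1-KI 1, beside 5.16% of all genes higher. In that fit 13 of the 20 lay above 0, beside 46.1% of all genes, with a list median of 0.03. Without the 4 libraries rich in Foxj1, 10 lay above 0, beside 47.7% of all genes, with a list median of 0.00. The mRNA of citrate synthase (Cs) differed by 0.02 (standard error 0.06), and that of the outer membrane channel Vdac1 by 0.00. These are levels of RNA, and the mitochondrial content of the tissue was not measured.

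Some markers of other cell types differed between the genotypes at an unadjusted p under 0.05, and none was DE with limma-trend. Of all genes, 5.36% were higher and 4.64% lower at that p, and 5.16% and 4.06% without HSD17B1-KI 1. Of the 4 adipose markers, Adipoq, Cfd and Lep were lower in HSD17B1-KI and Plin1 higher, of which Adipoq and Cfd passed without HSD17B1-KI 1, and the summed level ranged from 2277 to 8361 normalized counts in HSD17B1-KI and from 2266 to 8811 in WT. Of the 4 smooth muscle markers, Acta2 and Cnn1 were lower, neither of them without HSD17B1-KI 1, with sums of 29132 to 55768 and 33234 to 55692. Of the 5 theca and interstitial markers, Insl3 alone passed and was higher in both fits (log2 fold change 1.17, limma-trend adjusted p = 0.11, DESeq2 adjusted p = 0.00234, 0.00234 to 0.513 over the alternatives), with sums of 615566 to 984113 and 401097 to 854904. All 5 lay above 0 in both fits, beside 44.8% of all genes, and 46.1% without HSD17B1-KI 1. Their median log2 fold change was 0.99, or 0.98 without HSD17B1-KI 1. With the 5 genes weighed alike, as for complex II, the mean was 0.49 (SD 0.61) in HSD17B1-KI and -0.43 (SD 0.39) in WT. By that measure the genotypes overlapped, with 5 of 7 HSD17B1-KI mice above all WT mice. No marker of the granulosa, luteal, oocyte, oviduct or macrophage lists had an unadjusted p under 0.05. Ucp1, the defining marker of brown fat, had at most 3.66 counts in any mouse. With Cidea, the other brown fat marker listed, the sum was 5.18 to 182 normalized counts in HSD17B1-KI and 3.30 to 364 in WT. It was 364 in WT 8, 275 in WT 1, 182 in HSD17B1-KI 1 and 90.5 in HSD17B1-KI 3, the libraries rich in Foxj1, and at most 61.4 in the other mice. The part of these cell types in the differences of the respiratory chain genes was not tested.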

How the data were processed

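RNA from the ovaries of 7 HSD17B1-KI and 8 WT mice was sequenced, with 1 library per mouse. Per the labels and the study's methods, reads were trimmed with Skewer and aligned to the mouse genome mm10 with STAR, and the authors deposited normalized counts per gene, a signal in which each library's counts are divided by 1 size factor. The counting program and the annotation release are not given in the sources used here. Whole reads were recovered from these values in every library (tolerance 0.001), and 100% of values came out whole. The members of the respiratory chain group, and all gene and marker lists, were chosen with earlier results of these data known, and the motif letters were chosen after the promoter sequences had been seen.

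Of 27907 genes, the 21525 whose mean over the 15 mice reached 2 normalized counts were tested. The test was limma-trend (limma 3.58.1, R 4.3.3) on log2(normalized count + 1) with Benjamini-Hochberg adjustment over all genes tested, so that fold changes of genes with few counts are understated. DE means an adjusted p under 0.05. This differs from the study's own test, which used counts. Alternatives were edgeR 4.0.16 (quasi-likelihood, TMM) and DESeq2 1.42.0 on the recovered reads, a pseudocount of 0.1 or 10, upper quartile scaling, no filter or a filter at a mean of 10, scaling to the total of nuclear genes only, the replicate number as a block, and leaving out each mouse. The fit without the 4 libraries with over 2000 counts of Foxj1 was added after seeing the data. The fits across genes were tested on simulated data. The genes named were those with the highest and lowest fold change of each complex, those past a threshold, the core subunits, the tissue isoforms and the mitochondrial genes, and others were picked once their values had been seen. One item of this rule is not reported here. All p-values are two-sided. Each library came from another female.

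Copies of mitochondrial genes were searched with blastn 2.17.0 in GENCODE M21 transcripts (GRCm38, the build of the files), which held 27533 of the 27907 gene identifiers. Promoter sequences came from RefSeq (GRCm38.p6). Depth ranged from 26544745 to 72362981 reads per mouse.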

Additional observations from a re-analysis of the deposited data

Results flagged for a closer look

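Within each genotype, the highest or lowest mouse was compared with its nearest neighbour by Dixon's ratio in 96 groups of values, and 14 values, from 5 mice, stood apart. Chance flags about 1 in 20 such groups. HSD17B1-KI 1 accounted for 9 of the 14, with Cox6a2 at 329.8 normalized counts, Uqcrc1 at 10943, mt-Co1 at 1254814, mt-Co2 at 34199, mt-Cytb at 919842, mt-Nd1 at 348283, mt-Nd2 at 332529 and mt-Nd4 at 67542, and with the mitochondrial share of all counts at 6.31%. Of these values mt-Nd4 was the lowest of its group and the others the highest. HSD17B1-KI 6 was high for Cox7a2l, at 11429. In WT, WT 1 was high for Cox7a2, at 5979, and for Cox8c, at 3.39, where counts are too few to compare mice. WT 2 was high for Cox6a2, at 23.9, and WT 5 for mt-Nd6, at 172. The cause of these values was not tested.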

How the results depend on the processing

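The number of DE members was 2 with limma-trend and 2 with DESeq2, 1 with edgeR and with a pseudocount of 10 (Sdhb in both), and 0 with limma-trend without the filter, with nuclear scaling, with the replicate number as a block and without the 4 libraries rich in Foxj1, an alternative chosen after seeing the data. Leaving out 1 mouse gave 0 to 2. The number of members with an unadjusted p under 0.05 was 14, or 15 without the filter, 13 with nuclear scaling and 15 with edgeR, but 7 with the replicate block, 7 without the 4 libraries, and 9 to 17 when 1 mouse was left out. Leaving out 1 mouse also moved the median log2 fold change, over 0.06 to 0.16 for all members, 0.07 to 0.16 for the nuclear genes, 0.06 to 0.16 for complex I, 0.18 to 0.22 for complex II, 0.08 to 0.18 for complex III, 0.05 to 0.13 for complex IV, 0.05 to 0.12 for complex V and -0.02 to 0.22 for the 6 mitochondrial genes with many counts. With nuclear scaling the nuclear median was 0.08. Of 1181 values of 44 named genes under the alternatives, 1094 kept their direction and their side of the threshold, 38 (Sdha and Sdhb) lost the call, and 49, of 14 genes that were not called in any fit, changed sign. Their log2 fold change turned without the 4 libraries to 0.029 for Atp5f1, 0.030 for Cox7a2l, 0.058 for Cox8a, 0.054 for Uqcrb, -0.027 for mt-Co2, -0.028 for mt-Cytb, 0.027 for mt-Nd4 and 0.087 for mt-Nd4l. It turned with DESeq2 without HSD17B1-KI 1 to -0.0092 for Atp5g1, -0.041 for Ndufv2, -0.039 for mt-Co2, -0.074 for mt-Cytb and -0.039 for mt-Nd1. Others turned with nuclear scaling to -0.0042 for Atp5g2 and -0.0064 for Ndufv2, with the block to -0.017 for Ndufv2, with DESeq2 to -0.032 for mt-Co2, and with a pseudocount of 0.1 to 0.014 for mt-Nd3 and 0.18 for mt-Nd4l. Leaving out 1 mouse gave -0.077 to 0.0093 for Atp5f1, -0.0085 to 0.089 for Atp5g1, -0.011 to 0.057 for Atp5g2, -0.12 to 0.0098 for Cox7a2l, -0.043 to 0.043 for Cox8a, -0.33 to 0.22 for Cox8b, -0.031 to 0.082 for Ndufv2, -0.086 to 0.052 for Uqcrb, -0.10 to 1.51 for mt-Co2, -0.070 to 0.26 for mt-Cytb, -0.041 to 0.19 for mt-Nd1 and -0.39 to 0.067 for mt-Nd4l. The cause was not tested. The block needs numbers that pair the mice, and the labels do not say whether they do. The correlations of same-numbered mice ranged from -0.5485 to 0.5505, and only the mice numbered 1 correlated best with their own number. Both of these mice are among the libraries rich in Foxj1, so the correlations do not settle whether mice were paired. The block also left out WT 8, which has no partner. Genes with few counts, such as mt-Nd3 and mt-Atp8, and genes with near-identical copies cannot be compared with confidence.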
